A study of Mus musculus with 17 samples.

Results

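The 7 genes described here are Sntg1, Ptprq, Nppa, Dscaml1, Kif1a, Alkal1 and Gm47842. Gm47842 has no known function, and the others are best known from sites outside the kidney tubule. The genes were chosen by their measured counts in these libraries, because they were strongly higher in senescent than in non-senescent tubular cells, and several of them also because they were higher in the kidneys of older mice. Their symbols were matched to the gene identifiers of the count files, and all 7 were found among the 53313 identifiers that all 17 libraries share. Because the measured values chose the genes, their levels and differences are given as a description, with no test.

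The libraries came from wild-type mice, named C57BL/6Rj in the sample labels and C57BL/6JRj in the methods of the paper, and fall into 5 groups. Primary tubular epithelial cells (PTEC), grown from tubular fragments of collagenase-digested kidneys, were sequenced as 4 cultures at day 6 without irradiation (non-senescent PTEC) and as 4 cultures at day 16 after 10 Gray of gamma irradiation (senescent PTEC). Whole kidney tissue was sequenced from 3 male mice at each of 3, 12 and 24 months of age. Irradiation and the days in culture changed together in PTEC and cannot be told apart, and whole kidneys mix all renal cell types, so that a change in the number of cells of a type and a change in RNA per cell cannot be told apart either. The labels do not say whether the cultures came from separate mice, so that p-values in PTEC measure the spread between these cultures.

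Senescent cells no longer divide, often after damage to their DNA, and typically release inflammatory and matrix-modifying factors. Genes that are normally restricted to neurons, the heart or the inner ear are kept silent in most other epithelia by repressors and closed chromatin. Nppa encodes the precursor of atrial natriuretic peptide, a hormone of the heart atria that acts on the kidney through the guanylyl cyclase receptor Npr1. Ptprq encodes a receptor-type phosphatase known from the hair bundle of the inner ear. Sntg1 encodes gamma-1 syntrophin, an adaptor of the dystrophin complex found mainly in neurons, Dscaml1 an immunoglobulin superfamily adhesion molecule of neurons, and Kif1a a kinesin-3 motor that carries synaptic vesicle precursors along axons. Alkal1 encodes a secreted ligand of the receptor tyrosine kinases Alk and Ltk. Gm47842 is annotated as a processed pseudogene.

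Of the 7 genes, the RefSeq promoter table of GRCm38.p6 matched only Nppa and Kif1a, and both start regions are shown because Nppa was near absence and Kif1a already present in non-senescent PTEC. Each run covers 250 bases before and 50 bases after the transcription start, at chr4:148000472-148000771 on the plus strand for Nppa and chr1:93101825-93102124 on the minus strand for Kif1a, and capitals mark a match to the TATA motif (TATAAA).
Nppa: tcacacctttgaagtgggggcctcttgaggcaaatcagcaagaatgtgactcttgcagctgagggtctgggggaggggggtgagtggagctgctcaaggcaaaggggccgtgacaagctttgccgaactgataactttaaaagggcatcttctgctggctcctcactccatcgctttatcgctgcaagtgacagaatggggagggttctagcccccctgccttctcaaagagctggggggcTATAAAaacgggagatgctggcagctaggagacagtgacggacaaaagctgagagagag
Kif1a: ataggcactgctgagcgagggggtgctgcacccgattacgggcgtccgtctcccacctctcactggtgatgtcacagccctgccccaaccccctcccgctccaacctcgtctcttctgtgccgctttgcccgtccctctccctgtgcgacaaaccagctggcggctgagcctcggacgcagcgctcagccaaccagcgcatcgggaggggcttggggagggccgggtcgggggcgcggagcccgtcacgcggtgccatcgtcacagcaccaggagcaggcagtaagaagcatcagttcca
The Nppa window held TATAAA, beginning 9 bases before the start, a motif that 13.6% of the 32851 promoters of the table hold on either strand. The Kif1a window did not hold TATAAA. Neither window held the searched letters of the AP-1 motif (TGANTCA), which 7.8% of promoters hold on either strand. The same was true of the core of the CRE motif, TGACGT, held by 7.5% of promoters, of the GATA motif in its form GATAAG, held by 7.4%, of the motif CCAAT, held by 37.4%, and of the GC box in its form GGGCGG, held by 35.7%. The E-box (CANNTG, in 72.3% of promoters) occurred at 2 places in Nppa and at 1 in Kif1a and is not capitalised. The windows differed in base composition, with 54.7% GC and a CpG observed to expected ratio of 0.28 in Nppa and 67.0% GC and a ratio of 0.72 in Kif1a, beside medians of 52.7% and 0.38 over all promoters. The table lists a second start for Kif1a, at chr1:93082431-93082730, with 51.7% GC and a ratio of 0.05.

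On GRCm38, Sntg1 (ENSMUSG00000025909.16) spans chr1:8361475-9299878 and Kif1a (ENSMUSG00000014602.15) chr1:93015464-93101951, both on the minus strand. Alkal1 (ENSMUSG00000087247.3) lies at chr1:6359218-6394731 on the plus strand. Ptprq (ENSMUSG00000035916.8) is at chr10:107517049-107720051 on the minus strand, Nppa (ENSMUSG00000041616.9) at chr4:148000722-148002079 and Dscaml1 (ENSMUSG00000032087.10) at chr9:45426628-45753712, the latter pair on the plus strand. Gm47842 (ENSMUSG00000112855.1) is a single exon of 3764 bases at chr10:33324012-33327775 on the minus strand, inside the body of Trdn on the opposite strand, with which it shares no exonic base.

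Reads of Nppa and Gm47842 could be shared with other genes. Exons of Nppa overlap the antisense gene Gm13054 by 532 bases, and 48.61% of the 76-base words of the Nppa transcript occur there in the antisense direction. Gm13054 held from 0 to 11 counts in non-senescent PTEC and from 1 to 11 in senescent PTEC, and the part of shared reads in the counts of either gene was not tested. In Gm47842, 76 of 3689 words of 76 bases (2.06%) occurred in transcripts of other genes. The transcripts of the other five genes shared no 76-base word with another gene.

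Reads counted on genes numbered 26963442 to 35409144 per culture and 37311247 to 66894790 per kidney, the most in 24-month-old kidneys. Levels are given as raw counts or as CPM, read counts relative to the library size after TMM scaling within PTEC or within kidneys, and a library with no count allows a level of up to that of 3 counts, which was 0.0922 to 0.118 CPM in non-senescent PTEC and 0.0456 to 0.0788 CPM in kidneys (counting error only). Senescent PTEC held 772 ± 115 CPM of the arrest gene Cdkn1a and 7.88 ± 3.24 CPM of the proliferation marker Mki67, against 313 ± 75.4 and 335 ± 130 in non-senescent PTEC (SD, n = 4). The label of proximal tubular cells was checked against 14 proximal tubule markers, whose summed level was 181 to 1030 CPM in PTEC and 45700 to 58900 CPM in kidneys. Slc34a1, Slc5a12, Slc22a6, Slc22a8 and Miox did not pass the filter on low counts in PTEC.

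Nppa, Sntg1 and Gm47842 were at or near absence in non-senescent PTEC. Sntg1 had no count in any of the 4 non-senescent cultures and 92, 59, 43 and 86 counts in senescent cultures 1 to 4 (2.27 ± 0.872 CPM, SD, n = 4). Against the floor of 3 counts per library, Sntg1 was at least 21.6-fold higher in senescent PTEC. Nppa had 0, 4, 1 and 0 counts in the non-senescent and 167, 141, 75 and 153 in the senescent cultures. Its mean was 0.0426 ± 0.0619 CPM in the former and 4.35 ± 1.58 CPM in the latter. The difference by edgeR was 6.52 ± 0.69 on the log2 scale (SE) and rests on only 5 reads in the lower group. Gm47842 had 2, 4, 0 and 0 counts against 219, 150, 76 and 131, with means of 0.0482 ± 0.0625 and 4.66 ± 2.05 CPM and a log2 fold change of 6.39 ± 0.69. For these genes every senescent culture lay far above every non-senescent one.

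Ptprq, Dscaml1 and Alkal1 had a few reads in every non-senescent culture. Ptprq, the hair bundle phosphatase, had 4, 3, 2 and 6 counts in non-senescent and 819, 334, 298 and 659 in senescent cultures. Its level went from 0.13 ± 0.0634 to 17.1 ± 8.84 CPM (SD, n = 4), a ratio of 131. Dscaml1 had 1, 6, 3 and 6 counts against 73, 25, 154 and 81, that is 0.142 ± 0.0862 against 2.54 ± 1.37 CPM and a ratio of 17.9. Alkal1 had 10, 10, 7 and 3 counts against 120, 44, 206 and 84, that is 0.255 ± 0.0988 against 3.45 ± 1.72 CPM and a ratio of 13.5. The groups did not overlap for any of these 3 genes, but the senescent cultures differed among themselves by 3.27-fold for Ptprq, 3.79-fold for Alkal1 and 4.97-fold for Dscaml1.

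Kif1a was not switched on from absence. It had 783, 955, 485 and 1378 counts in non-senescent PTEC (31.3 ± 14.0 CPM) and 4959, 3286, 6034 and 5358 in senescent PTEC (154 ± 31.7 CPM), a 4.93-fold higher level (2.30 ± 0.30, SE, on the log2 scale). Per kilobase of exon, where genes can be compared, Kif1a stood at 3.36 ± 1.50 RPKM in non-senescent PTEC and at 16.6 ± 3.39 RPKM in senescent PTEC. On the same scale the senescent levels of the other genes were 5.03 ± 1.82 for Nppa, 3.55 ± 1.77 for Alkal1, 2.28 ± 1.18 for Ptprq, 1.24 ± 0.545 for Gm47842, 0.285 ± 0.154 for Dscaml1 and 0.208 ± 0.0799 for Sntg1. Kif1a thus had a higher level per kilobase in all 4 senescent cultures (11.8 to 19.8) than any of the other 6 genes in any library.

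**Figure D1:**
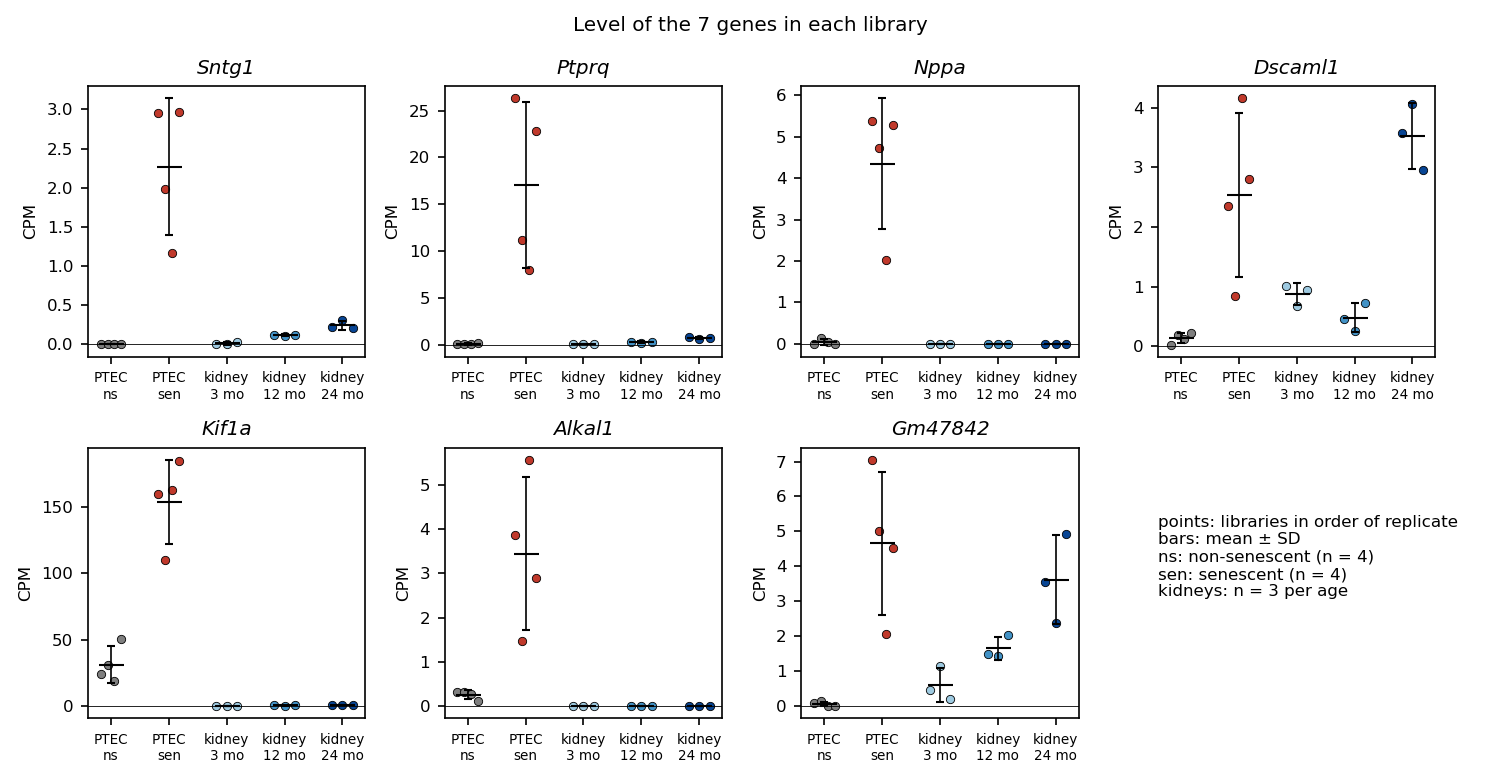
CPM of each of the 7 genes (1 panel per gene, linear axis from 0) in every library of the 5 groups, with points for libraries in order of replicate and bars for mean ± SD (n = 4 cultures or 3 kidneys). All 7 genes were higher in every senescent than in every non-senescent culture, while Nppa and Alkal1 lie at 0 in all 9 kidneys and the ranges of Dscaml1 in 24-month-old kidneys and senescent PTEC overlap.

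All 7 genes passed the filter on low counts in PTEC and all 7 lay above the non-senescent range in every senescent culture, which the choice of the genes fixed. Of the 15434 genes tested in PTEC, 20.1% were called higher and 19.7% lower in senescent PTEC, and 22.1% had every senescent culture above every non-senescent one. A call here is an adjusted p under 0.05 from edgeR's quasi-likelihood test and a log2 fold change beyond 0.5. Ordered by log2 fold change, Ptprq (6.99 ± 0.53, SE) came first among the 6 genes with counts in both groups, followed by Nppa, Gm47842, Dscaml1 (4.15 ± 0.61), Alkal1 (3.73 ± 0.48) and Kif1a. Sntg1 has no place in this order, since its fitted value of 9.10 ± 0.80 is set by the prior count and became 5.14, below the 6.45 of Ptprq, with a prior count of 2. Leaving out non-senescent culture 2, which held most of the few Nppa and Gm47842 reads of its group, moved their log2 fold changes to 8.09 and 7.40. For Nppa the value was 6.09 without non-senescent culture 1, the lowest of these fits.

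The 4 senescent cultures did not rank alike for the 7 genes. Senescent culture 3 held the lowest level of Sntg1, Ptprq, Nppa and Gm47842, at 0.512, 0.471, 0.466 and 0.44 times the mean of the 4 senescent cultures. The same culture held the highest level of Dscaml1 and Alkal1, at 1.64 and 1.61 times the mean, and the second highest of Kif1a (163 CPM, next to 185 CPM in culture 4). Senescent culture 2 was the lowest for Dscaml1, Alkal1 and Kif1a, at 0.33, 0.427 and 0.713 times the mean. The lowest culture was thus the same within each of these sets of 4 and 3 genes, while the order of the other cultures differed among genes, other than for Ptprq and Nppa, which shared it. Summed marker levels also differed in culture 3. Of the 4 senescent cultures it had the lowest level of 11 fibroblast and pericyte markers (613 CPM, others 918 to 1280), of 9 podocyte markers (252 CPM, others 358 to 516) and of 7 endothelial markers (71.0 CPM, others 140 to 276). It was also the lowest for leukocyte markers (34.8 CPM, others 40.5 to 83.9) and proximal tubule markers (181 CPM, others 225 to 359), and the highest for 9 senescence and cell cycle genes (2330 CPM, others 1480 to 1880) and for cardiac markers (14.3 CPM, others 8.14 to 11.3). It lay within the range of the others for neuron (170 CPM, others 140 to 221), hair cell (105 CPM, others 98.5 to 146) and Schwann cell markers (44.4 CPM, others 24.9 to 45.8). Non-senescent culture 3 was likewise the lowest of its group for podocyte (113 CPM) and endothelial markers (80.2 CPM). The part of these differences in the levels of the 7 genes was not tested.

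**Figure D2:**
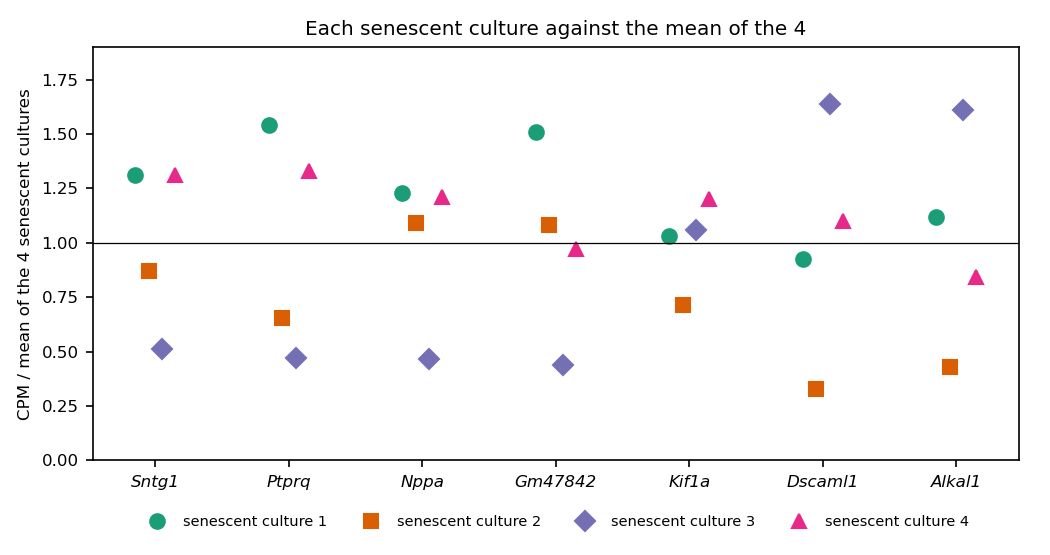
CPM of each gene in each of the 4 senescent cultures divided by the mean of these 4 cultures (y axis, linear from 0; line at 1), with 1 symbol and colour per culture. Culture 3 is the lowest for the 4 genes at the left and the highest for the 2 at the right, where culture 2 is the lowest.

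Cultures of the same number deviated from their groups with r from 0.186 to 0.614 over 4 pairs, beside −0.492 to 0.265 for cultures of different numbers. These ranges overlap, and the sample titles give replicate numbers without naming pairs. The numbers were taken as pairs for the ratios below and for the replicate block, while the main tests used none. Within pairs 1 to 4 the ratio of senescent to non-senescent CPM of Kif1a was 6.64, 3.51, 8.58 and 3.63. For Alkal1 it was 12.6, 4.48 and 20.3 in pairs 1 to 3, the fourth having only 3 reads below. Among the pairs given, both genes had their lowest ratio in pair 2, which for Kif1a was close to that of pair 4. Kif1a had its highest ratio in pair 3. For Alkal1 no highest pair is read, since pair 4 stood at 2.90 against 0.111 CPM.

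In kidneys Nppa and Alkal1 were not detected, the means of Sntg1, Ptprq, Kif1a and Gm47842 were higher at each later age, and that of Dscaml1 was higher at 24 months but lower at 12 than at 3 months. Nppa and Alkal1 had 0 counts in all 9 kidneys, which at the depth of these libraries allows at most 0.0456 to 0.0788 CPM per kidney. The other 5 genes passed the filter among the 17067 genes tested in kidneys. These levels were low, and at 3 months none of the 5 had more than 55 counts in a kidney.

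Sntg1 had 0, 0 and 1 count at 3 months, 7, 6 and 6 at 12 months and 14, 20 and 13 at 24 months. Its level was 0.0075 ± 0.013, 0.112 ± 0.0118 and 0.239 ± 0.0566 CPM (SD, n = 3), and the ages did not overlap. The ratio of 24 to 3 months was 31.4 with an exact binomial 95% interval from 5.37 to 1270, and that of 12 to 3 months was 14.7 (2.33 to 609), intervals that cover counting error only. Ptprq had 3, 5 and 4 counts, then 22, 13 and 18, then 54, 40 and 48, that is 0.0904 ± 0.0118, 0.314 ± 0.0887 and 0.723 ± 0.109 CPM. Its 24-month-old kidneys were 8.0-fold above those of 3 months and 2.3-fold above those of 12 months. Both genes showed the same order of ages, at levels far below those of senescent PTEC.

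Kif1a had 2, 10 and 5 counts at 3 months, 30, 17 and 27 at 12 months and 62, 40 and 57 at 24 months. At 0.123 ± 0.0767, 0.44 ± 0.139 and 0.81 ± 0.179 CPM it had the same order of ages without overlap, with a log2 fold change of 2.66 ± 0.47 (SE) between 24 and 3 months. Its level in kidneys of every age was nonetheless far below the 19.0 to 50.9 CPM of non-senescent PTEC, so that Kif1a separated cultured cells from tissue more than it separated ages. Levels in PTEC and kidneys were scaled apart and are set side by side, not tested.

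Dscaml1 did not follow the order of ages. It had 39, 33 and 42 counts at 3 months, 26, 16 and 38 at 12 months and 234, 267 and 193 at 24 months. The level was 0.882 ± 0.182 CPM at 3 months and 0.482 ± 0.237 CPM at 12 months, ranges that overlapped (log2 fold change −0.87 ± 0.36, SE), and 3.53 ± 0.548 CPM at 24 months. The 24-month-old kidneys stood 4.01-fold above the 3-month-old and 7.32-fold above the 12-month-old kidneys. Among the 5 genes found in kidneys, Dscaml1 was the only one whose mean was lower at 12 than at 3 months, and the only one whose mean in 24-month-old kidneys exceeded that in senescent PTEC (2.54 CPM), with overlapping ranges. The identifier of Dscaml1 carries another version in the count files of 12- and 24-month-old kidneys than in those of PTEC and 3-month-old kidneys, and the part of that in the comparison with 3 months was not tested. Between 12 and 24 months the version was the same.

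Gm47842 had 17, 55 and 8 counts at 3 months, 85, 86 and 105 at 12 months and 232, 156 and 321 at 24 months. Its means were 0.584 ± 0.488, 1.64 ± 0.337 and 3.61 ± 1.28 CPM without overlap between ages, and the 24-month-old kidneys overlapped with senescent PTEC (2.05 to 7.05 CPM). The second 3-month-old kidney (1.13 CPM) stood above the others of its age (0.446 and 0.18 CPM), and without it the log2 fold change of 24 against 3 months was 3.55 in place of 2.61. Trdn, the gene on the other strand of this locus, held 33 to 52, 66 to 258 and 80 to 137 counts in 3-, 12- and 24-month-old kidneys, but at most 3 counts in senescent PTEC. In PTEC, counts of Gm47842 were therefore seen with almost none of Trdn. In kidneys the level of Trdn was 0.935 ± 0.374, 2.26 ± 1.72 and 1.80 ± 0.503 CPM at 3, 12 and 24 months (SD, n = 3). The adjusted p by edgeR was 0.259 for 12 against 3, 0.348 for 24 against 3 and 0.762 for 24 against 12 months. Since the 12-month-old kidneys spread from 66 to 258 counts, no order of 12 and 24 months is read from these means. The part of Trdn in the counts of Gm47842 was not tested.

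All 5 genes had every 24-month-old kidney above every 3-month-old one, beside 11.9% of all genes tested, and all 5 had every 24-month-old kidney above every 12-month-old one, beside 13.5%. In the step from 3 to 12 months this held for 4, beside 10.9%. These comparisons share kidneys and the genes were listed with the kidney values known, so nothing is read from the counts. Over all genes tested, 1.89% were called higher and 0.451% lower in 24- against 3-month-old kidneys, 1.22% and 1.36% in 12- against 3-month-old and 0.896% and 0.434% in 24- against 12-month-old kidneys.

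**Figure D3:**
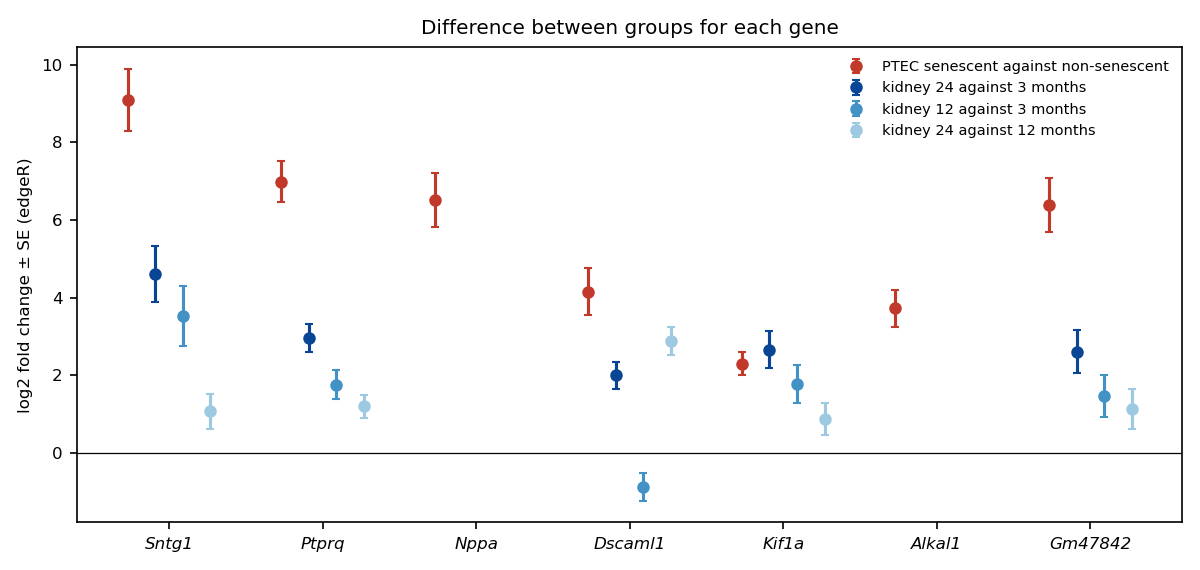
Log2 fold change ± SE from edgeR (y axis) for each of the 7 genes in 4 comparisons, 1 colour each; kidney values are missing for Nppa and Alkal1, which had no count in kidneys. Values in PTEC exceed those in kidneys for Ptprq, Dscaml1 and Gm47842 when 24 and 3 months are compared, the PTEC value of Sntg1 is set by the prior count and is not compared, Kif1a has 2.30 in PTEC beside 2.66 in kidneys, and Dscaml1 is below 0 for 12 against 3 months.

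With all 17 libraries scaled together by TMM, the most alike pair among the 7 genes was Sntg1 and Ptprq (Pearson r = 0.979 of log2 CPM), followed by Nppa and Alkal1 (0.918) and Kif1a and Alkal1 (0.914). Kif1a and Dscaml1 had an r of −0.17. These values describe 17 libraries that fall into cultures and kidneys and into groups within each, for genes chosen by their levels. The part of each split in these values was not tested. Among the 15185 genes with at least 1 CPM in some group on this joint scale, the genes most like Ptprq after Sntg1 were Gria3, a glutamate receptor subunit (0.974), and Iglon5 (0.968). Those most like Sntg1 after Ptprq were P2ry6, a receptor for extracellular nucleotides (0.961), and Ssc5d (0.956). For Nppa they were Ccnd2, a D-type cyclin (0.986), Rgs8 (0.976) and Acta2, smooth muscle actin (0.974), and for Alkal1 Gzme (0.988), the neuronal intermediate filament gene Ina (0.984) and Nppb (0.982). Dennd2a, Bmp1 and Arhgef2 were most like Kif1a (0.988 each), Zfp3 (0.923), Igfbp7 (0.901) and Zbtb24 (0.896) most like Dscaml1, and Cplx2 (0.95), Spock2 (0.95) and Dnah2 (0.948) most like Gm47842.

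Genes related to the 7 by family or pathway were listed by their known roles, with earlier results of these data known, and tested. Of 68 genes in 7 lists, 53 were tested in PTEC, and 12 (22.6%) rose and 9 (17%) fell, beside 20.1% and 19.7% of all genes (15 and 9 with the replicate number as a block). Their median log2 fold change was 0.16, beside −0.002 over all genes. Adjusted p-values here and below are from edgeR's quasi-likelihood test with Benjamini-Hochberg adjustment over all genes tested.

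Of 12 genes of the natriuretic peptide system 10 were tested, 6 rose and 2 fell, and the median was 1.47 on the log2 scale. The summed level of the list overlapped between the groups, at 453 to 676 CPM in non-senescent and 487 to 611 CPM in senescent PTEC. Among ligands, Nppb, the B-type peptide whose gene neighbours Nppa, rose from 0.517 ± 0.0792 to 4.02 ± 1.25 CPM (log2 fold change 2.95 ± 0.30, adjusted p = 8.01e-05), and like Nppa it had no count in kidneys. Corin, the protease that cleaves the Nppa precursor, rose by 2.29 ± 0.32 (adjusted p = 0.000455). Among receptors, the clearance receptor Npr3 rose the most, from 2.16 ± 0.89 to 62.2 ± 24.2 CPM (4.84 ± 0.41, adjusted p = 2.5e-05), and Npr2, the receptor of the C-type peptide, rose by 2.60 ± 0.26 (adjusted p = 6.1e-05). Npr1, through which the Nppa product acts, stood at 12.8 ± 7.4 CPM in senescent and 8.49 ± 1.97 CPM in non-senescent PTEC (adjusted p = 0.257). Downstream, the cGMP-dependent kinase gene Prkg1 rose by 2.97 ± 0.56 while Prkg2 fell by 1.15 ± 0.21, the phosphodiesterase gene Pde5a rose by 0.64 ± 0.22, and Mme, encoding a peptide-degrading protease, fell by 0.82 ± 0.24. The most abundant gene of the list, Furin, had 250 ± 17 and 281 ± 24.2 CPM (adjusted p = 0.285).

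Relatives of the other genes showed no single direction. Of the syntrophin and dystrophin complex, 12 of 15 genes were tested and 3 rose: Sspn by 2.34 ± 0.32, Dtna by 1.24 ± 0.24 and Sgce by 0.79 ± 0.20 on the log2 scale (adjusted p from 0.0004 to 0.0115), while Dag1, the most abundant, had 1070 ± 487 against 626 ± 189 CPM (adjusted p = 0.0993, or 0.0361 with the block). Of the DSCAM and contactin family 6 of 13 were tested. Nfasc (3.63 ± 0.53) and Sdk1 (2.83 ± 0.55) rose, Nrcam fell by 2.11 ± 0.24 and Cntn2 fell by 1.09 ± 0.29, and Dscam, the closest relative of Dscaml1, did not pass the filter. Of 11 kinesin-related genes listed with Kif1a, mostly kinesin-3 motors and their adaptors, the kinesin-11 gene Kif26b rose (2.04 ± 0.45, adjusted p = 0.00494) and the mitotic motor gene Kif14 fell by 5.10 ± 0.45. Kif1b and Kif1c, the closest relatives of Kif1a, differed by 0.59 ± 0.33 (adjusted p = 0.175, or 0.00419 with the block) and by 0.43 ± 0.12 (adjusted p = 0.0173, under the fold limit of 0.5). Of the phosphatases related to Ptprq, Ptprh and Ptprb fell by 4.24 ± 0.72 and 0.92 ± 0.21, and Ptprj, at 192 ± 34.1 against 152 ± 45.3 CPM, did not pass (adjusted p = 0.258).

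The receptors that Alkal1 binds were low. Alk and the second ligand gene Alkal2 did not pass the filter, and Ltk was measured at 5.26 ± 2.34 CPM in senescent and 2.91 ± 0.953 CPM in non-senescent PTEC (log2 fold change 0.86 ± 0.36, adjusted p = 0.078). With the replicate block Ltk passed, at 0.81 ± 0.25 (adjusted p = 0.0217). Of the Alk-binding growth factors, Ptn fell by 1.73 ± 0.61 from a low level and Mdk was at 1.51 ± 0.739 against 2.33 ± 0.726 CPM (adjusted p = 0.229). In kidneys Mdk rose from 18.4 ± 3.95 CPM at 3 months to 63.3 ± 5.22 CPM at 24 months (SD, n = 3, log2 fold change 1.78 ± 0.24, adjusted p = 0.00955). Of 8 genes of the REST complex, the repressor of neuronal genes, Rcor2 fell by 0.92 ± 0.33 (adjusted p = 0.0485) and Rest itself was at 60.3 ± 7.34 against 46.8 ± 10.8 CPM (adjusted p = 0.134).

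In kidneys the relatives were mostly below the threshold. Of 59 tested, 1 (Mdk, 1.69%) was called higher between 24 and 3 months, beside 1.89% of all genes. In that comparison 13 had an unadjusted p under 0.05, for which the share over all genes is not given here. DESeq2 called 6, and over all genes it called 727 higher and 308 lower. Between 12 and 3 months 1 (1.69%, beside 1.22% of all genes) was called higher, Prkg1, from 0.509 ± 0.299 to 2.0 ± 0.243 CPM (adjusted p = 0.0476). Of the 9 fits that left out 1 kidney, only that without the second 3-month-old kidney kept this call (adjusted p = 0.018, others 0.0644 to 0.182), and it was lost with the block (adjusted p = 0.128) and with these ages fitted alone (adjusted p = 0.122), but not with DESeq2 or RLE scaling. Between 24 and 12 months edgeR called 0, beside 0.896% of all genes higher and 0.434% lower. Of these relatives 6 had an unadjusted p under 0.05, DESeq2 called 3, and 9 were called when these ages were fitted alone with the replicate number as a block. Over all genes DESeq2 called 493 higher and 286 lower, and the fit with the block called 1297 higher and others lower. Nothing about the relatives is read from these counts.

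Markers of the tissues where the 7 genes are known were counted in PTEC, where 20.1% of all genes were called higher and 19.7% lower. Of 22 neuron markers 16 were tested, 9 rose and 1 fell (11 and 1 with the block, which added Tubb3 and Celf4), with a median of 1.43 on the log2 scale. Their summed level was 140 to 221 CPM in senescent and 57.5 to 86.1 CPM in non-senescent PTEC. The neurofilament family genes Nefl (3.60 ± 0.48) and Ina (3.57 ± 0.31) rose the most and Uchl1, the most abundant, rose by 1.49 ± 0.28 to 119 ± 25.4 CPM, whereas Map2 fell by 0.79 ± 0.26. The synaptic and neuronal nuclear genes Snap25 and Rbfox3 did not pass the filter. Of 5 hair cell markers tested of 14, Tecta (3.60 ± 0.56), Myo15 (1.95 ± 0.65) and Espn (1.41 ± 0.43) rose, and the hair cell factor Atoh1 had no count in PTEC. The summed hair cell level overlapped between the groups, at 55.3 to 163 CPM in non-senescent and 98.5 to 146 CPM in senescent PTEC. Of 16 cardiac markers 4 were tested, with Tnnt2 fallen by 1.89 ± 0.40 (adjusted p = 0.00411) and the atrial gene Myl7 below the filter.

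Markers of other renal cells moved in both directions with senescence, where 20.1% of all genes were called higher and 19.7% lower. Of 10 tested fibroblast and pericyte markers 6 rose and 1, Cspg4, fell by 1.25 ± 0.37, with Acta2 from 60.5 ± 25.8 to 695 ± 248 CPM (3.52 ± 0.37, adjusted p = 8.8e-05) and Postn rising by 3.27 ± 0.38. The summed level went from 158 to 316 CPM in non-senescent to 613 to 1280 CPM in senescent PTEC, while Lum did not pass the filter. Of 7 tested podocyte markers Nphs1 (3.36 ± 0.84), Synpo (2.11 ± 0.28) and Cdkn1c (0.74 ± 0.23) rose, with a summed level of 113 to 245 against 252 to 516 CPM. Of 9 tested leukocyte markers 4 fell, of 9 tested proximal tubule markers 6 fell, among them Hnf4a by 2.98 ± 0.18, and of 7 endothelial markers Kdr fell by 1.01 ± 0.30. None of 3 tested Schwann cell markers was called by edgeR (2 had an unadjusted p under 0.05, DESeq2 called 1, and Mbp passed with the block, falling by 0.52 ± 0.18). Of 9 senescence and cell cycle genes 4 rose and 5 fell. The part of these cell types in the levels of the 7 genes was not tested. With the replicate number as a block, 9 fibroblast and pericyte markers rose, 2 endothelial markers rose and 2 fell, and the leukocyte and proximal tubule markers that fell were 5 and 7, with Adgre1 and Cubn added.

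In kidneys, genes were called in only a few of the marker lists. Between 24 and 3 months 3 of 14 tested proximal tubule markers and 5 of 8 tested senescence and cell cycle genes (Cdkn1a, Gdf15, Mki67, Top2a and Ccnb1) passed in the higher direction, beside 1.89% of all genes. That list joins arrest genes with proliferation genes such as Mki67, which was lower in senescent PTEC. None of these called genes passed without the first 3-month-old kidney, 0 and 2 did with the replicate block, and 1 and 3 did with these ages alone. Between 12 and 3 months 1 of 11 neuron markers (Map2) and 2 of 8 senescence and cell cycle genes (Cdkn1a and Gdf15) passed in the lower direction, beside 1.36% of all genes. Of these, 0 passed without the first 12- or the first 3-month-old kidney or with the block, while Cdkn1a alone did with these ages alone. Between 24 and 12 months 5 of 8 senescence and cell cycle genes, Cdkn1a, Mki67, Top2a, Ccnb1 and Gdf15, passed in the higher direction, beside 0.896% of all genes. This count was 0 without the first 12-month-old kidney, 1 without either other 12-month-old kidney or without the first or second 24-month-old one, 0 with the block over all ages and 7 with these ages alone and the block. The proximal tubule genes among them for 24 against 3 months were Slc5a2 (1.88 ± 0.26), Slc5a12 (1.56 ± 0.29) and Miox (0.74 ± 0.15), and 2 others had an unadjusted p under 0.05 in the lower direction. The summed level of the 14 proximal tubule markers was lower at 24 months (45700 to 50900 CPM) than at 3 (52200 to 53300 CPM) or 12 months (54700 to 58900 CPM), without overlap. Most of the 3-month sum was its most abundant gene, Kap, with 25100 ± 2870 CPM at 24 and 35600 ± 4080 CPM at 3 months (adjusted p = 0.117). By contrast, 11 of the 14 had a positive log2 fold change for 24 against 3 months, with a median of 0.46. The sum is therefore not read as a fall of these markers as a set. The summed fibroblast and pericyte level was 193 to 223 CPM at 3, 228 to 233 CPM at 12 and 254 to 316 CPM at 24 months, ranges in the same order as Sntg1, Ptprq, Kif1a and Gm47842, and that of leukocyte markers was 104 to 155, 151 to 190 and 162 to 234 CPM. The summed neuron marker level was 24.9 to 32.5, 21.8 to 22.5 and 24.9 to 25.9 CPM and did not follow age. That of hair cell markers was 57.5 to 80.7, 52.5 to 77.1 and 81.3 to 108 CPM, higher at 24 months without overlap. That of cardiac markers was 5.82 to 13.9, 5.67 to 9.08 and 4.18 to 5.77 CPM. The part of these cells in the kidney levels of the 7 genes was not tested.

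**Figure D4:**
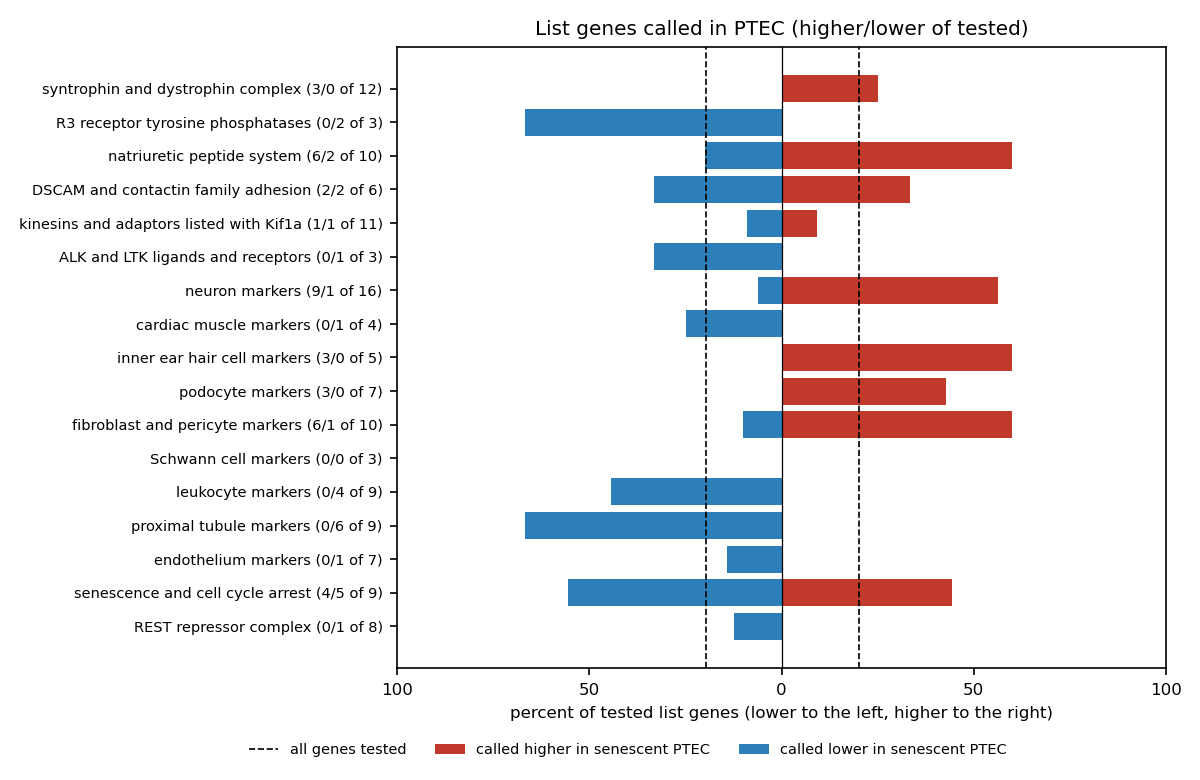
Percent of the tested genes of each of 17 lists that were called higher (right) or lower (left) in senescent PTEC by edgeR, with the counts higher/lower of tested after each name and dashed lines at 20.1% and 19.7%, the shares over all genes. Natriuretic peptide genes (6 of 10), neuron markers (9 of 16), hair cell markers (3 of 5) and fibroblast markers (6 of 10) lie to the right, proximal tubule markers (6 of 9 lower) to the left.

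Position was examined next, since it had not entered the choice of the genes. Of 204 genes annotated within 500 kb of one of the 7, 64 were tested in PTEC, of which 8 (12.5%) rose and 7 (10.9%) fell, beside 20.1% and 19.7% of all genes. Around Nppa 23 were tested. Nppb, 13.5 kb away, and Draxin, a guidance factor gene 96.4 kb away (0.194 ± 0.0881 to 1.27 ± 0.393 CPM, log2 fold change 2.71 ± 0.41, adjusted p = 0.000678), rose the most, Zfp933 and Agtrap rose by 0.64 ± 0.18 and 0.57 ± 0.13, and Miip and Mad2l2 fell by 0.89 ± 0.20 and 0.73 ± 0.19. Clcn6, the nearest tested neighbour at 2.2 kb, had a log2 fold change of −0.49 ± 0.15. Around Dscaml1 19 were tested. Scn4b, a sodium channel subunit gene (0.0498 ± 0.052 to 1.38 ± 0.27 CPM, log2 fold change 4.64 ± 0.52, adjusted p = 0.000135), and Tagln, a smooth muscle cytoskeletal gene (132 ± 58.7 to 738 ± 284 CPM, log2 fold change 2.48 ± 0.39), rose. Fxyd2, encoding a subunit of the sodium pump and only 16.4 kb away, fell by 4.02 ± 0.64 from 236 ± 168 to 14.5 ± 9.74 CPM (adjusted p = 0.000948), and Tmprss4, Mpzl2 and Mpzl3 fell by 4.35 ± 0.66, 2.17 ± 0.36 and 0.76 ± 0.21.

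Around Kif1a, with 15 neighbours tested, Ankmy1 rose by 1.49 ± 0.39 and Pask fell by 1.31 ± 0.16. Of 2 neighbours tested around Alkal1, Rb1cc1 rose by 0.73 ± 0.18, and no gene around Sntg1 was called among 5 tested, with differences from −0.46 ± 0.16 for Rrs1 (adjusted p = 0.0365, under the fold limit) to 0.71 ± 0.32 for 2610203C22Rik (adjusted p = 0.0967). With the block Vcpip1 near Sntg1 (0.59 ± 0.15, adjusted p = 0.0108) and Dusp28 near Kif1a (0.52 ± 0.17, adjusted p = 0.0311) passed. No gene within 500 kb of Ptprq or Gm47842 passed the filter, so that both lie in surroundings with little other expression in PTEC. In kidneys 76 neighbours were tested. Of these, 2 (2.63%) were called higher and 0 lower for 24 against 3 months, beside 1.89% and 0.451% of all genes. For 12 against 3 months 2 (2.63%) were called higher and 1 (1.32%) lower, beside 1.22% and 1.36%. Between 24 and 3 months Cd3g (1.68 ± 0.26, adjusted p = 0.0148) and Cd3e (1.63 ± 0.34, adjusted p = 0.0471), T cell receptor complex genes 446.2 and 417.0 kb from Dscaml1, passed in the higher direction, and between 12 and 3 months Cd3g and Angptl7 (1.91 ± 0.28) passed in the higher and Tmprss13 (−4.70 ± 0.88) in the lower direction. Of 9 fits that left out 1 kidney, Cd3g kept its call in 5 for 24 against 3 months, losing it without kidney 1 or 3 of either age, and Cd3e in 1, without the second 3-month-old kidney. For 12 against 3 months Angptl7 kept its call in 7, losing it without kidney 1 or 3 of 12 months, Tmprss13 in 2 and Cd3g in 1, each of them without the second 3-month-old kidney and Tmprss13 also without the second 24-month-old one. With the compared ages fitted alone Cd3e lost its call for 24 against 3 months (adjusted p = 0.0819), as did Angptl7 (0.0714), Tmprss13 (0.0939) and Cd3g (0.115) for 12 against 3 months. Between 24 and 12 months edgeR called 0 neighbours, beside 0.896% of all genes higher and 0.434% lower. An unadjusted p under 0.05 was reached by 10, DESeq2 called 4, and 9 were called with these ages fitted alone and the replicate block. Over all genes DESeq2 called 493 higher and 286 lower, and the fit with the block called 1297 higher and others lower. Nothing about the neighbours is read from these counts.

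**Figure D5:**
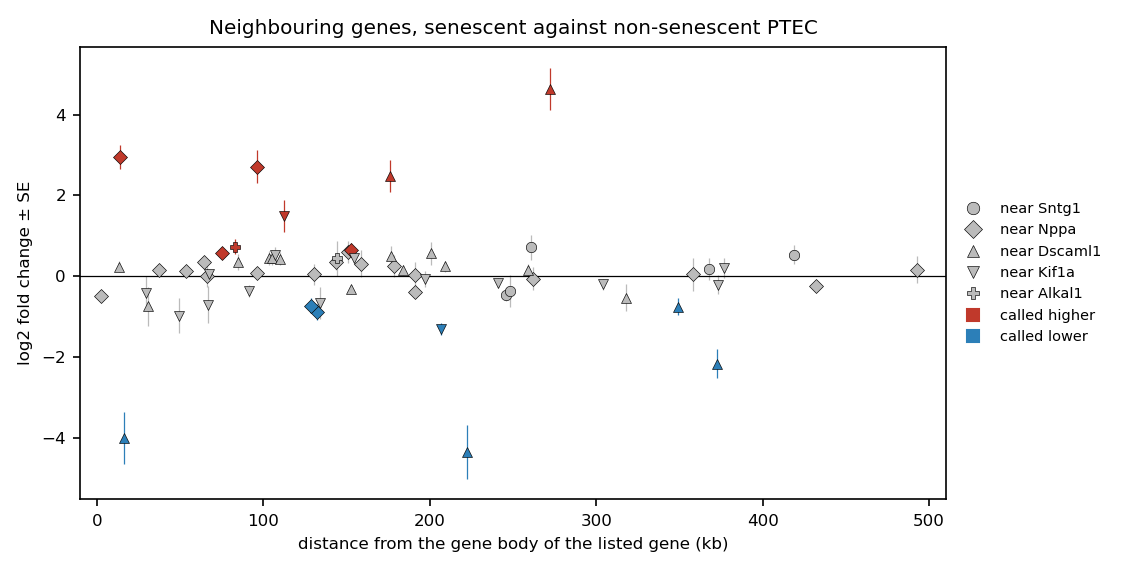
Log2 fold change ± SE in senescent against non-senescent PTEC (y axis) of the 64 tested genes within 500 kb, against the distance from the body of the listed gene in kb (x axis), with symbols for the listed gene and colours for genes called higher or lower by edgeR. Nppb at 13.5 kb from Nppa is above 0 and Fxyd2 at 16.4 kb from Dscaml1 below it.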

How the data were processed

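RNA from 8 PTEC cultures and 9 kidneys was extracted with a column kit, enriched for mRNA, made into directional libraries and sequenced by the authors, who processed the reads with nf-core/rnaseq on GRCm38. Raw counts per gene were deposited without normalization. The strand setting of the counting was not given in the sources used here, so that reads of genes overlapping on opposite strands may not be told apart. The authors' 3 gene sets (53715 identifiers in PTEC, 54146 in 3-month-old and 55401 in 12- and 24-month-old kidneys) were joined on identifiers without version. Every comparison with 3 months thus coincides with a change of gene set, and the part of that change in the differences was not tested. Members and gene lists were chosen with earlier results of these data known.

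The tests were run with edgeR 4.0.16 in R 4.3.3 (TMM, filterByExpr, robust quasi-likelihood test, Benjamini-Hochberg) for PTEC and for all kidneys apart, and a gene was called where its adjusted p was under 0.05 and its log2 fold change beyond 0.5 in either direction. CPM used TMM library sizes within PTEC or kidneys (over all 17 libraries for correlations), RPKM divided them by merged exon length, and fold changes carry a prior count of 0.125. Python 3.11.15, pandas 2.3.3 and matplotlib 3.10.9 were used for the rest. Exons, positions and 76-base words were taken from GENCODE annotation of GRCm38, and promoters from RefSeq. Named genes were the 7, the 3 most alike of each over 17 libraries, the called extremes and most abundant genes of each of 17 lists (187 genes), and called neighbours within 500 kb. Other list genes named here, among them defining markers below the filter, and Clcn6, Rrs1, 2610203C22Rik, Vcpip1, Dusp28, Trdn and the genes whose call changed with the block were chosen after their values were seen.

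Alternatives were RLE scaling, DESeq2 1.42.0 with the settings of the study, no filter, a log2 limit of 1, a prior count of 2, a replicate block, compared ages alone, other windows, plain library totals and each library left out. Same-numbered PTEC deviated together (r 0.186 to 0.614, 4 pairs), as did 12- and 24-month-old kidneys (0.172 to 0.557, 3 pairs), but not 3-month-old kidneys with either. Different numbers reached 0.265 in PTEC and ranged from −0.479 to 0.27 between 12- and 24-month-old kidneys, so matched and unmatched values overlap. Kidneys of different ages are different mice, so that the block is there an alternative fit and no pairing of animals. Replicates differed by a chi-square per gene of 15.8 to 312 over 21 pairs, so each library was counted as 1 sample. On simulated counts edgeR recovered 97 of 110 genes changed by 2 on the log2 scale and 47 of 90 changed by 1 in PTEC (4 of 148 calls false), and 83 of 97 and 24 of 103 for 24 against 3 months (6 of 113 false). A further marker gene and a further sequence are not reported here.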

Additional observations from a re-analysis of the deposited data

How the results depend on the processing

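Precision for the 7 genes is limited by low counts, from 0 to 10 in non-senescent PTEC for the 6 genes other than Kif1a. With a prior count of 2 the log2 fold changes in PTEC became 5.14 for Sntg1 (Ptprq 6.45), 5.34 for Nppa and 5.34 for Gm47842, and in kidneys 2.65 for Sntg1 and 2.58 for Ptprq (24 against 3 months) and 1.76 and 1.46 (12 against 3 months), values moved towards 0 by construction. DESeq2 gave 8.46 for Sntg1 in PTEC. All 22 differences of the 7 genes kept their sign under the alternatives run. With 1 library left out, Nppa ranged from 6.09 to 8.09 and Gm47842 from 6.03 to 7.40 in PTEC. In 24 against 3 months Sntg1 ranged from 4.09 to 6.77, Kif1a from 2.33 to 3.24 and Gm47842 from 2.18 to 3.55, and in 12 against 3 months from 3.00 to 5.69, 1.45 to 2.36 and 1.03 to 2.40. The highest value came without the 3-month-old kidney 3 for Sntg1 and without kidney 2 for the others. For Sntg1 that fit left no count at 3 months, so that its 6.77 and 5.69 are set by the prior count and are no upper limit.

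Counts over all genes in PTEC were 3100 higher and 3044 lower, with 1686 lower at a log2 limit of 1. With the replicate block 14 genes of the lists and 2 neighbours gained a call in PTEC and 0 lost one. Neighbours called higher were 16 within 1000 kb and 13 without the filter, and those lower 4 within 250 kb and 22 within 1000 kb. Kidney counts moved with most settings. For 24 against 3 months (322 higher, 77 lower) they were 102 and 24 with the replicate block, 727 and 308 with DESeq2 and 208 higher with these ages alone. For 12 against 3 months (209 and 232) they were 52 and 66 with the block, 531 and 576 with DESeq2 and 38 and 26 with these ages alone. For 24 against 12 months (153 and 74) they were 0 and 0 with the block over all ages, 493 and 286 with DESeq2, 46 lower with these ages alone, 49 lower at a limit of 1, and 1297 and 903 with these ages alone and the replicate block, a fit chosen after seeing the data. The causes were not tested. With 1 kidney left out the counts ranged from 52 to 460 higher and 22 to 334 lower (24 against 3), 31 to 249 and 21 to 467 (12 against 3), and 0 to 264 and 1 to 114 (24 against 12), the highest each time without the second 3-month-old kidney.

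Relatives called in kidneys were 6 (24 against 3), 3 (12 against 3) and 3 (24 against 12) with DESeq2, 2 with RLE scaling or no filter and 0 with the block or these ages alone for 12 against 3, and 9 for 24 against 12 with these ages alone and the block. They ranged from 1 to 4, 0 to 1 and 0 to 1 with 1 kidney left out. Neighbours called for 24 against 3 months were 0 with the block and within 250 kb, 1 with these ages alone, and 0 to 4 with 1 kidney left out. For 12 against 3 months they were 1 with the block, 0 with these ages alone, 9 with DESeq2, 1 within 250 kb, 5 within 1000 kb and 0 to 4 with 1 kidney left out. For 24 against 12 months they were 4 with DESeq2, 1 within 1000 kb, 2 without the filter, 1 with these ages alone, 9 with these ages alone and the block, and 0 to 2 with 1 kidney left out. For relatives and neighbours, fits without the filter and with the compared ages alone were chosen after seeing the data.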
